A study of Homo sapiens with 9 samples.

Results

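Nuclear-encoded subunits of the respiratory chain and of ATP synthase were followed in HaCaT keratinocytes treated with EGF or bleogen pB1. The genes were chosen by a rule on their symbols, which took the NDUFA, NDUFB, NDUFC, NDUFS and NDUFV genes with a number, SDHA to SDHD, the UQCR genes, CYC1, the COX4 to COX8 genes and the ATP5 genes. They numbered 84 of the 16199 genes listed, with 37 in complex I, 4 in complex II, 10 in complex III, 12 in complex IV and 21 in complex V. HaCaT is an immortalized human keratinocyte line, here of wild-type genotype. Cells were treated after they reached confluence, and 3 libraries were made from each group. The groups were untreated cells, cells given 10 nM EGF and cells given 1 µM bleogen pB1, a cystine-knot peptide of the cactus Pereskia bleo that activates the EGF receptor. Treatment lasted 24 h, and all groups were kept without serum during it.

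Oxidative phosphorylation takes place in the inner mitochondrial membrane. Complex I takes electrons from NADH and complex II takes them from succinate, and both pass them to coenzyme Q. Complex III hands them on to cytochrome c, complex IV to oxygen, and complexes I, III and IV pump protons. ATP synthase, complex V, lets the protons flow back past a ring of c subunits in the membrane, whose turning drives the catalytic F1 head. All complexes but complex II also hold subunits encoded in mitochondrial DNA. The 13 mitochondrially encoded subunits were not analysed here.

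The libraries held between 20288417 and 21320994 expected counts assigned to genes. A floor of 3 counts stood at 0.141 to 0.148 CPM (counts scaled to library size) and covers counting error only. All 8 keratinocyte markers were found at 163.3 CPM or more in every library. Markers of other cell types were low. The summed mean level of 5 melanocyte, 6 fibroblast, 3 endothelial and 3 leukocyte markers was 7.74, 8.72, 3.94 and 11.96 CPM in untreated cells, 6.06, 1.57, 0.431 and 20.2 CPM with EGF, and 7.33, 7.55, 1.41 and 10.9 CPM with bleogen pB1. TYR was at 0 in every library, and CD68 made up nearly all of the leukocyte sum, with PTPRC and CD3E at most 0.295 and 0.0481 CPM. The part of these levels in the results was not tested. In bulk RNA, fewer cells of a kind and less RNA per cell cannot be told apart. The labels do not say that the 3 libraries of a group came from separate cultures, so that p-values measure the spread between these libraries, which may be technical.

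Of the 84 genes, 81 were listed in all 9 libraries and 82 passed the count filter. UQCRHL, a copy of UQCRH, had counts in 1 untreated library only. ATP5MGL, a relative of ATP5MG, had no more than 2 counts in a library, and neither gene was tested. The tissue-restricted isoforms COX4I2, COX6A2, COX7A1, COX7B2 and COX8C were not listed in any of the 9 libraries. The counts of 10 genes were not whole numbers, because reads were divided between genes or transcripts. They are NDUFC2, NDUFV3, UQCRB, UQCRH, UQCRHL, COX6B2, ATP5MF, ATP5MF-PTCD1, ATP5PB and ATP5PF, and their values are uncertain to that extent. ATP5MF-PTCD1 is a read-through of ATP5MF and its neighbour, and its level ranged from 0 to 5.98 CPM within the untreated group, so it was not described further.

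The promoters of the subunit genes are shown first, because the nuclear factors NRF1, GABP (a factor of the ETS family) and YY1 are known regulators of this gene group. Promoter sequences from RefSeq (GRCh38.p14, 250 bases before to 50 after the start of the gene) matched 67 of the 84 genes. The NRF1 letters GCANGCGC, read on both strands, were found in 25 of these promoters (37.3%), against 21.0% of 10169 promoters of tested genes and 12.2% of all 27305 promoters. The ETS letters CCGGAAG were found in 20 (29.9%, against 19.7% and 10.7%), and the YY1 letters AAGATGGC in 11 (16.4%, against 5.48% and 3.03%). The GC-box letters GGGCGG were found in 42 (62.7%, against 70.0% and 44.6%). Matching letters are a description and not a bound site.

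SDHB, the iron-sulfur subunit of complex II, carried both an NRF1 and an ETS match, and its transcript rose with EGF. Its 250 bases before the start lie at chr1:17054033-17054282 on the minus strand. Capitals mark the NRF1 match, which begins 200 bases before the start, and the ETS match, which begins 128 bases before it.
SDHB: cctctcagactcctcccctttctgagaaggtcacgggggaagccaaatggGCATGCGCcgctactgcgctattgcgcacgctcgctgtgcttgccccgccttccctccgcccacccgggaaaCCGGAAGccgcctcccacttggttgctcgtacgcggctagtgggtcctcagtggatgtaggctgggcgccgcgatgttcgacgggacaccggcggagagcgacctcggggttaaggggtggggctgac

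Windows of 30 bases are given for some of the subunits that moved with EGF and had a match before the RefSeq start. They were taken from a short chosen list and are not the full set. They are written 5′ to 3′ on the strand of the gene, with the match in capitals. The 250 bases before these starts overlap annotated UTRs of GENCODE transcripts by 33 to 250 bases. The starts used for ATP5MC2, NDUFS3, NDUFS1 and UQCRQ lie inside the longer gene span that GENCODE gives. ATP5MC2 (chr12:53676105-53676134, minus strand), NDUFS6 (chr5:1801350-1801379, plus strand) and COX6B2 (chr19:55354864-55354893, minus strand) held the NRF1 letters. NDUFS3 (chr11:47578970-47578999, plus strand), NDUFS1 (chr2:206159584-206159613, minus strand), UQCRQ (chr5:132866576-132866605, plus strand) and NDUFA1 (chrX:119871773-119871802, plus strand) held the ETS letters, which NDUFS3 carried once on each strand.
ATP5MC2: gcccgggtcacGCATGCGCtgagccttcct
NDUFS6: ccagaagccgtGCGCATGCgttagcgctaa
COX6B2: ggtgcctgtgtGCACGCGCaggcccccgag
NDUFS3: cgCTTCCGGctccacgtccgcCCGGAAGaa
NDUFS1: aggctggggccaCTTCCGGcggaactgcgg
UQCRQ: aaatggtatctcCCGGAAGttacctcacga
NDUFA1: attccgtcgcttCTTCCGGagccgtacgtg

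Both kinds of match stood before genes that rose (NDUFS6, NDUFS3, NDUFS1 and UQCRQ) and before genes that fell (ATP5MC2, COX6B2 and NDUFA1). Of the subunit genes higher with EGF, 3 of 13 with a promoter held the NRF1 letters and 6 of 13 the ETS letters. Of those lower with EGF, 8 of 22 held the NRF1 letters and 5 of 22 the ETS letters, and of those not called, 14 of 32 and 9 of 32.

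Subunits of one complex are used in fixed numbers, but their transcripts were not at one level. Levels between genes were compared as FPKM (fragments scaled for gene length and depth), among genes of at least 10 FPKM in untreated cells. In complex I, the levels ran from 11.2 ± 0.77 FPKM for NDUFA5 to 205.7 ± 19.7 FPKM for NDUFB4 (SD, n = 3), 18.4-fold apart. In complex II they ran from 39.3 FPKM for SDHC to 128.8 FPKM for SDHD, and in complex III from 29.0 FPKM for UQCRB to 215.7 FPKM for UQCRH. Complex IV had the highest median, 268.8 FPKM, with COX7A2L at 45.02 FPKM and COX6A1 at 447.1 FPKM as its ends. In complex V the catalytic beta subunit ATP5F1B was highest at 511.8 ± 8.85 FPKM, and ATP5MC3 was lowest at 60.1 FPKM. The medians of complexes I, II, III and V were 79.3, 88.95, 110.6 and 152.5 FPKM.

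The lowest genes of complexes I, III and V were long. NDUFA5, UQCRB and ATP5MC3 were given mean lengths of 5601.5, 4839.6 and 2676.3 bases in untreated cells. ATP5MC3 had 153.5, 161.7 and 150.5 CPM before scaling for length and ATP5MC1 had 68.2, 74.8 and 61.7 CPM, but per length ATP5MC1 was higher, at 130.8 FPKM.

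**Figure D1:**
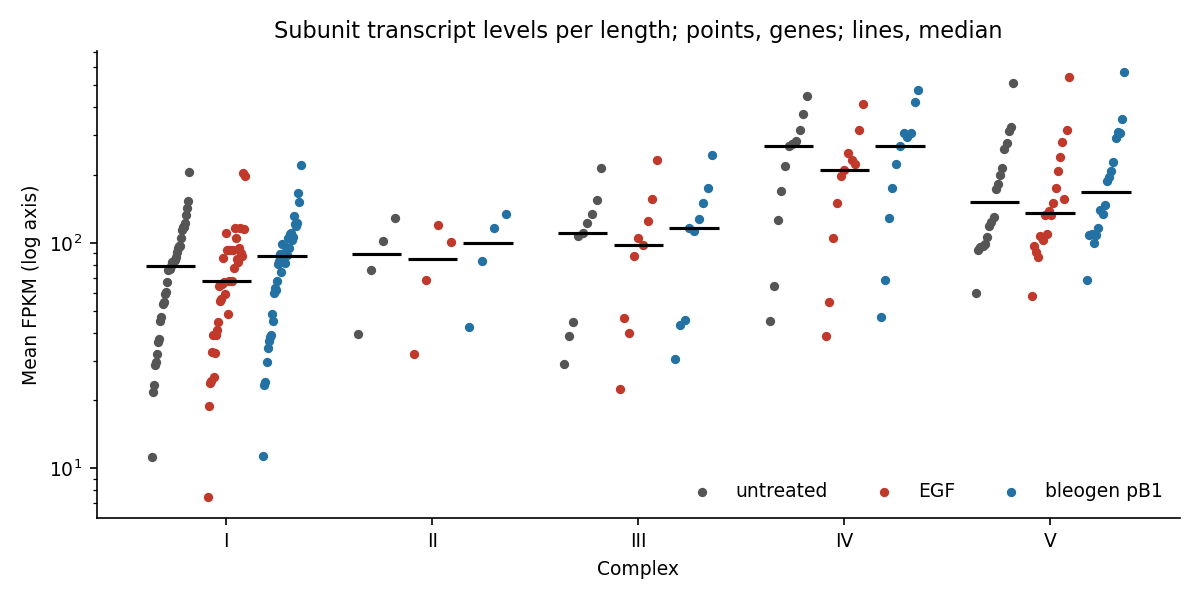
Mean FPKM (log axis) of the subunit genes with at least 10 FPKM in untreated cells, by complex and group. Points are genes (37, 4, 9, 11 and 18 in complexes I to V) and lines are medians, and complex IV has the highest median in each group.

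Of all counts, the 84 genes took 0.889, 0.946 and 0.876% in the untreated libraries, 0.840, 0.841 and 0.862% with EGF and 0.951, 0.995 and 0.937% with bleogen pB1. In these unscaled shares, every EGF library was below every untreated library. The bleogen pB1 libraries overlapped the untreated ones, of which replicate 2 was the highest. The TMM scaling factors used for CPM were 0.9635 to 0.9746 with EGF and 1.0037 to 1.016 in untreated cells. They bring the EGF and untreated shares closer together, so the separation is stated for unscaled shares only. The share of complex IV was 0.132 to 0.146% untreated and 0.115 to 0.121% with EGF. The share of complex V overlapped between these groups, at 0.319 to 0.344% and 0.316 to 0.328%.

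**Figure D2:**
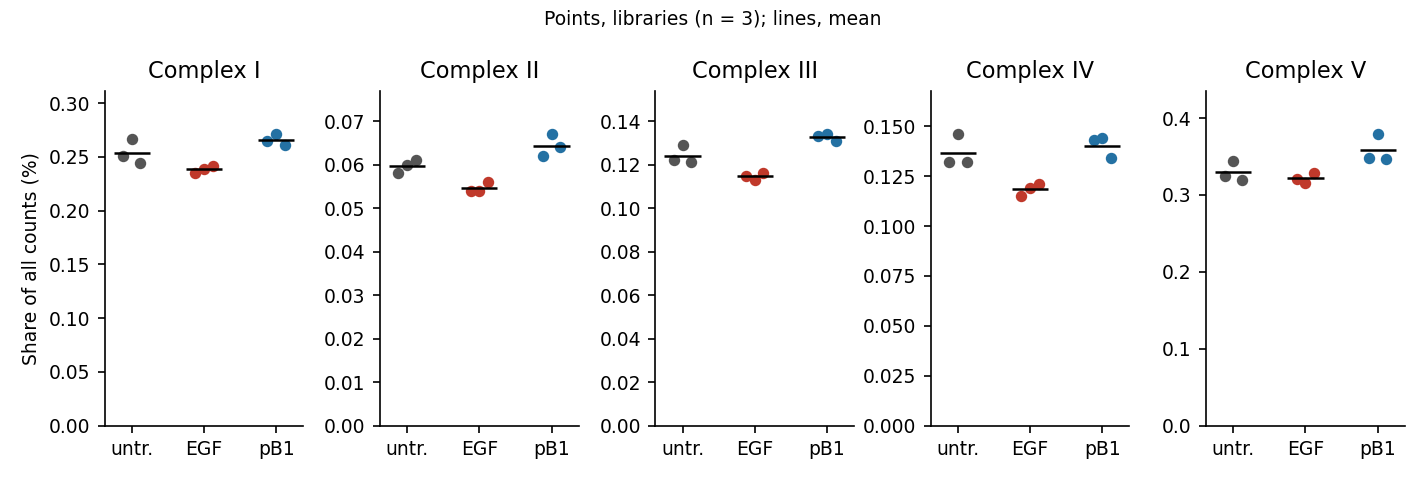
Share of all expected counts (%) taken by the subunit genes of each complex, with each library as a point and the mean of 3 libraries as a line. In these unscaled shares, the EGF libraries lie below the untreated ones in complexes I to IV and overlap them in complex V. The TMM scaling factors used for CPM are not applied here and would bring the EGF and untreated libraries closer together.

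To determine how EGF alters the subunit transcripts, the 3 EGF libraries were compared with the 3 untreated libraries with edgeR (quasi-likelihood F test). P-values were adjusted by Benjamini-Hochberg over the 12394 genes tested. At an adjusted p of at most 0.05, 14 of 82 subunit genes were higher (17.1%, against 32.4% of all genes tested) and 27 were lower (32.9%, against 33.6% of all genes tested). With a |log2FC| of at least 0.5 in addition, 8 genes were called (9.76%, against 36.9% of all genes tested). The median absolute log2FC was 0.19 for the subunit genes and 0.39 for all genes tested. The median log2FC was -0.09, beside -0.01 for all genes tested, and 53 of 82 subunit genes had values below 0 (64.6%, against 51.0%). Without untreated replicate 2 the median was -0.04 and 45 genes were below 0. With upper-quartile scaling the median of all genes moved to -0.12, and the split of subunit genes became 7 higher and 40 lower, so that 14.9% of the calls were higher in place of 34.1%. Without untreated replicate 1, 9 genes were higher, and without EGF replicate 2, 5 genes passed both thresholds.

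The 8 genes past both thresholds were NDUFB9 and NDUFS3, which rose, and COX6B2, ATP5MC2, ATP5S, NDUFB1, NDUFA1 and NDUFA5, which fell. Of the 14 genes higher with EGF, 7 (NDUFB8, NDUFB9, NDUFS1, NDUFS3, NDUFS6, SDHB and UQCRQ) kept their call in every alternative analysis and with each library left out, and of the 27 lower genes 19 did. The counts of higher and lower genes given next for each complex became 5 and 18 in complex I, 1 and 3 in complexes II and III, 0 and 9 in complex IV and 0 and 7 in complex V with upper-quartile scaling.

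**Figure D3:**
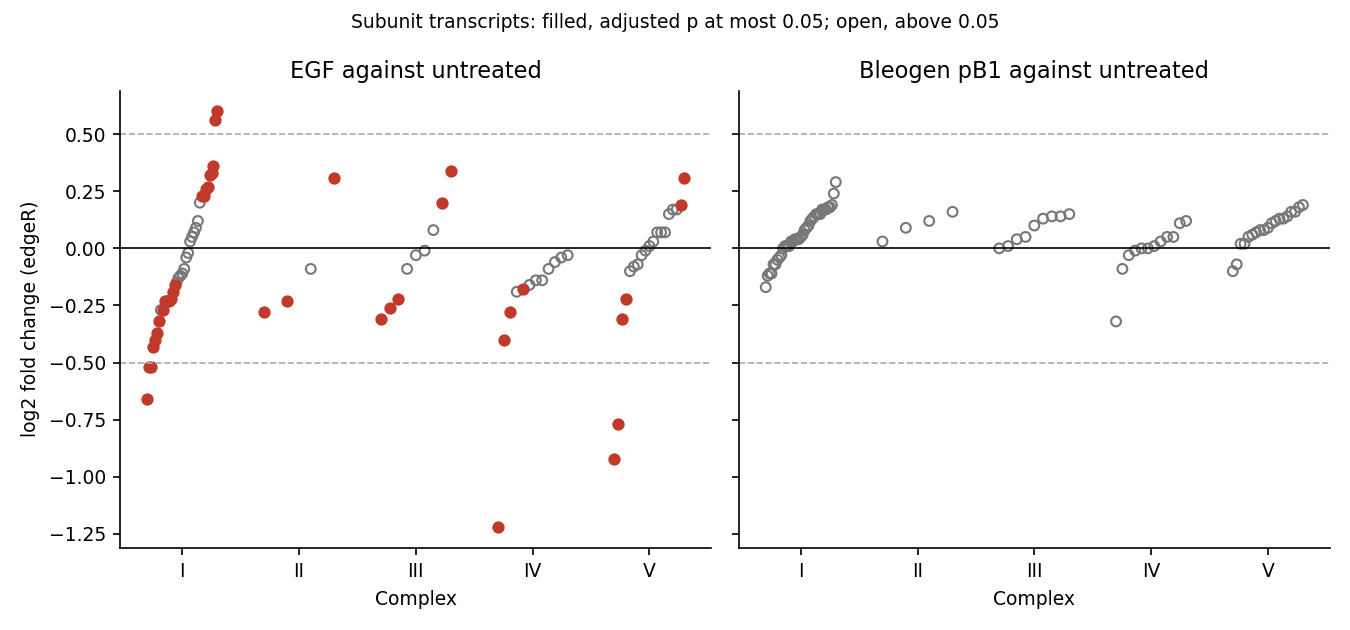
The log2 fold change of each tested subunit gene against untreated cells, by complex, for EGF (left) and bleogen pB1 (right), without the read-through ATP5MF-PTCD1. Filled points have an adjusted p of at most 0.05 and dashed lines mark 0.5 in either direction. With EGF, 41 genes are filled and ATP5MC2 (-0.92) and COX6B2 (-1.22) lie lowest, and with bleogen pB1 none is filled.

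Complex I held 9 genes that rose and 14 that fell among 37 (24.3% and 37.8%, against 32.4% and 33.6% of all genes tested). NDUFB9, an accessory subunit of the membrane arm, had 88.9, 99.3 and 91.5 CPM in untreated cells and 129.3, 151.1 and 144.9 CPM with EGF. The EGF libraries were all higher and the groups did not overlap. Its log2FC was 0.60 ± 0.07 (SE), with an edgeR adjusted p of 6.5e-06. NDUFB1, another accessory subunit of that arm, moved the opposite way, from 31.9, 30.2 and 25.5 CPM to 17.8, 19.1 and 18.5 CPM. All 3 EGF libraries were below all untreated ones, with a log2FC of -0.66 ± 0.10 (edgeR adjusted p = 7.45e-05). NDUFA1 and NDUFA5, also accessory subunits, each fell by 0.52 on the log2 scale, with no overlap between groups. NDUFA5 had 56.8, 62.1 and 64.9 CPM in untreated cells and 48.6, 35.3 and 44.6 CPM with EGF.

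The nuclear-encoded core subunits of complex I, which carry the flavin, the iron-sulfur clusters and the coenzyme Q site, moved in both directions, also with upper-quartile scaling. Higher levels were found for NDUFS3 (log2FC 0.56), NDUFS1 (0.33) and NDUFV2 (0.27). Lower levels were found for NDUFV1 (-0.27), which binds the flavin, and NDUFS7 (-0.19). NDUFS7 kept its call in only 2 of 6 analyses with 1 library left out and in 8 of 11 other alternatives. NDUFS8 had a log2FC of 0.20 and an edgeR adjusted p of 0.0504, just outside the threshold. NDUFS3 had 66.4, 76.7 and 68.4 CPM in untreated cells and 85.1, 119.9 and 106.3 CPM with EGF, and the SD of the EGF libraries, 17.5 CPM, was the wider one. NDUFS1 was tighter, with 101.7, 111.7 and 112.1 CPM against 133.0, 138.6 and 138.0 CPM. In neither gene did the groups overlap. NDUFS6, an accessory subunit, rose from 45.3, 47.1 and 45.6 CPM to 58.4, 57.95 and 60.6 CPM. Among the accessory families, 1 NDUFA gene was higher and 6 were lower of 13 (7.69% and 46.2%). Of 11 NDUFB genes, 4 were higher and 5 lower (36.4% and 45.5%, against 32.4% and 33.6% of all genes tested). NDUFA4, which bears a complex I name but is known as a subunit of complex IV, fell by 0.23. It kept its call in 4 of 6 analyses with 1 library left out.

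Complex II was divided between its parts. SDHB rose from 104.6, 111.1 and 113.8 CPM to 133.4, 133.1 and 141.1 CPM, without overlap (log2FC 0.31 ± 0.07, edgeR adjusted p = 0.00158). The membrane anchors fell, SDHC by 0.23 and SDHD by 0.28. SDHD had 167.3, 169.2 and 169.1 CPM in untreated cells and 133.9, 133.8 and 149.5 CPM with EGF, with all EGF libraries lower. SDHA, the flavoprotein that oxidizes succinate, had 191.9, 207.5 and 214.6 CPM untreated and 191.9, 190.4 and 193.7 CPM with EGF. Its log2FC of -0.09 did not pass the test, with a 95% interval of -0.23 to 0.04.

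In complex III, 2 of 9 tested genes rose and 3 fell (22.2% and 33.3%, against 32.4% and 33.6% of all genes tested). The small subunits UQCRQ (log2FC 0.34) and UQCRH (0.20) were higher. UQCRB fell by 0.31, the core protein UQCRC2 by 0.26 and UQCR10 by 0.22. UQCRC2 had 259.3, 269.2 and 257.0 CPM untreated and 222.4, 211.9 and 223.2 CPM with EGF, with no overlap. UQCRC1, its partner core protein, had a log2FC of -0.01, and the redox subunits CYC1 and UQCRFS1 (the Rieske protein) had -0.03 and 0.08. These 3 genes did not pass the test.

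Complex IV had no gene that rose (against 32.4% of all genes tested). COX4I1, COX5B, COX6B2 and COX7C fell, 33.3% of the 12 genes and near the 33.6% of all genes tested. COX5B kept its call in only 2 of 6 analyses with 1 library left out. All 12 genes had a log2FC below 0 (against 51.0% of all genes tested), with a median of -0.15 (against -0.01). Without untreated replicate 2, the untreated library with the highest share of subunit counts, 3 of the 12 were above 0, and without EGF replicate 1, 1 was. COX7C, a small structural subunit, had 108.5, 129.6 and 113.1 CPM in untreated cells and 80.9, 86.7 and 99.0 CPM with EGF, and its log2FC was -0.40 ± 0.09 (edgeR adjusted p = 0.00135). COX4I1, the largest nuclear-encoded subunit, fell by 0.28, from 195.5, 207.9 and 204.1 CPM to 169.3, 154.4 and 178.3 CPM. Both genes had their EGF libraries below all untreated ones. COX6B2, the minor form of COX6B1, was near the limit of detection, with 28.2, 37.5 and 26.2 expected counts untreated and 10.1, 19.8 and 8.01 with EGF. Its log2FC of -1.22 ± 0.43 lost its call in turn without untreated replicate 2 (-1.04), EGF replicate 1 (-1.08) and EGF replicate 3 (-0.96). COX6B1 itself had 111.4, 125.4 and 98.3 CPM untreated and 105.0, 111.7 and 104.2 CPM with EGF, which overlapped.

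In complex V, 2 of 20 tested genes rose and 4 fell. The 5 genes of the F1 head did not pass the test. The catalytic ATP5F1B had 886.9, 925.9 and 901.7 CPM untreated and 985.3, 989.0 and 1040.0 CPM with EGF, which did not overlap, with a log2FC of 0.15 and an edgeR adjusted p of 0.0529. ATP5F1A and ATP5F1C had log2FC values of 0.07 and 0.03. The median of the F1 head was 0.07, and it changed sign to -0.04 with upper-quartile scaling. In the stalks, ATP5PB (subunit b) rose by 0.19 and ATP5PO, which links the head to the peripheral stalk, fell by 0.31. ATP5MD, a small subunit of the membrane part, rose by 0.31. With 1 library left out, the call was kept in 4 of 6 analyses for ATP5PB and in 3 of 6 for ATP5MD and for ATP5IF1. ATP5IF1, the inhibitor protein of ATP synthase, fell by 0.22, and ATP5S, named for a coupling factor and not a subunit, fell by 0.77 from 4.48, 4.47 and 5.21 CPM to 2.70, 2.42 and 3.18 CPM.

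The largest change among subunit genes with a mean of at least 10 CPM was found in the c ring. ATP5MC1, ATP5MC2 and ATP5MC3 encode the same mature c subunit with different import sequences. ATP5MC2 (chr12:53632726-53677408 in GENCODE release 44, GRCh38) had 190.5, 191.0 and 162.1 CPM in untreated cells and 107.9, 90.98 and 89.0 CPM with EGF. Every EGF library was below every untreated one, and the log2FC was -0.92 ± 0.10 (edgeR adjusted p = 4.26e-06). ATP5MC1 had 68.2, 74.8 and 61.7 CPM untreated and 74.0, 79.1 and 77.8 CPM with EGF, and ATP5MC3 had 153.5, 161.7 and 150.5 CPM and 158.0, 151.6 and 160.8 CPM. Both overlapped between groups, and their log2FC values of 0.17 and 0.01 did not pass the test, with 95% intervals of -0.01 to 0.36 and -0.15 to 0.18.

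Per length, ATP5MC2 made up 63.5, 61.6 and 61.4% of the summed subunit c FPKM in untreated cells and 48.1, 42.7 and 42.0% with EGF. The share was lower in every EGF library, and ATP5MC2 remained the highest of the 3 genes in each. The summed level was 522.6, 532.0 and 461.0 FPKM untreated and 370.7, 343.8 and 343.8 FPKM with EGF, with no overlap. With bleogen pB1 the share of ATP5MC2 was 62.4, 54.5 and 59.0% and the sum was 549.4, 507.1 and 508.6 FPKM. Both overlapped the untreated libraries, and replicate 2 had the lowest share.

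**Figure D4:**
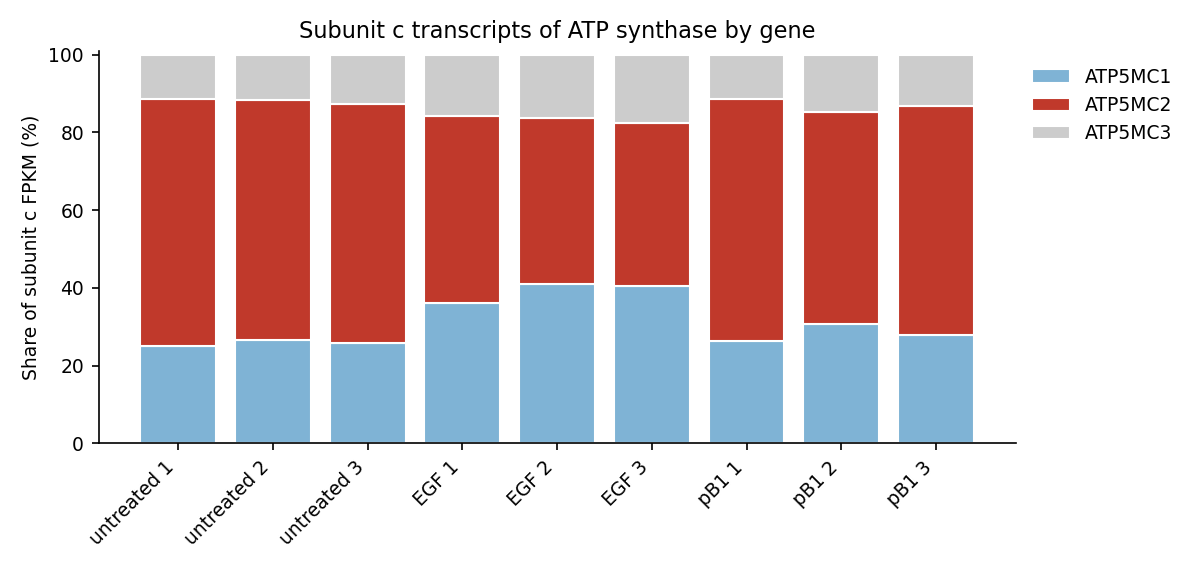
Share (%) of each subunit c gene in the summed FPKM of ATP5MC1, ATP5MC2 and ATP5MC3, by library. ATP5MC2 makes up 61.4 to 63.5% in untreated cells, 42.0 to 48.1% with EGF and 54.5 to 62.4% with bleogen pB1.

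**Figure D5:**
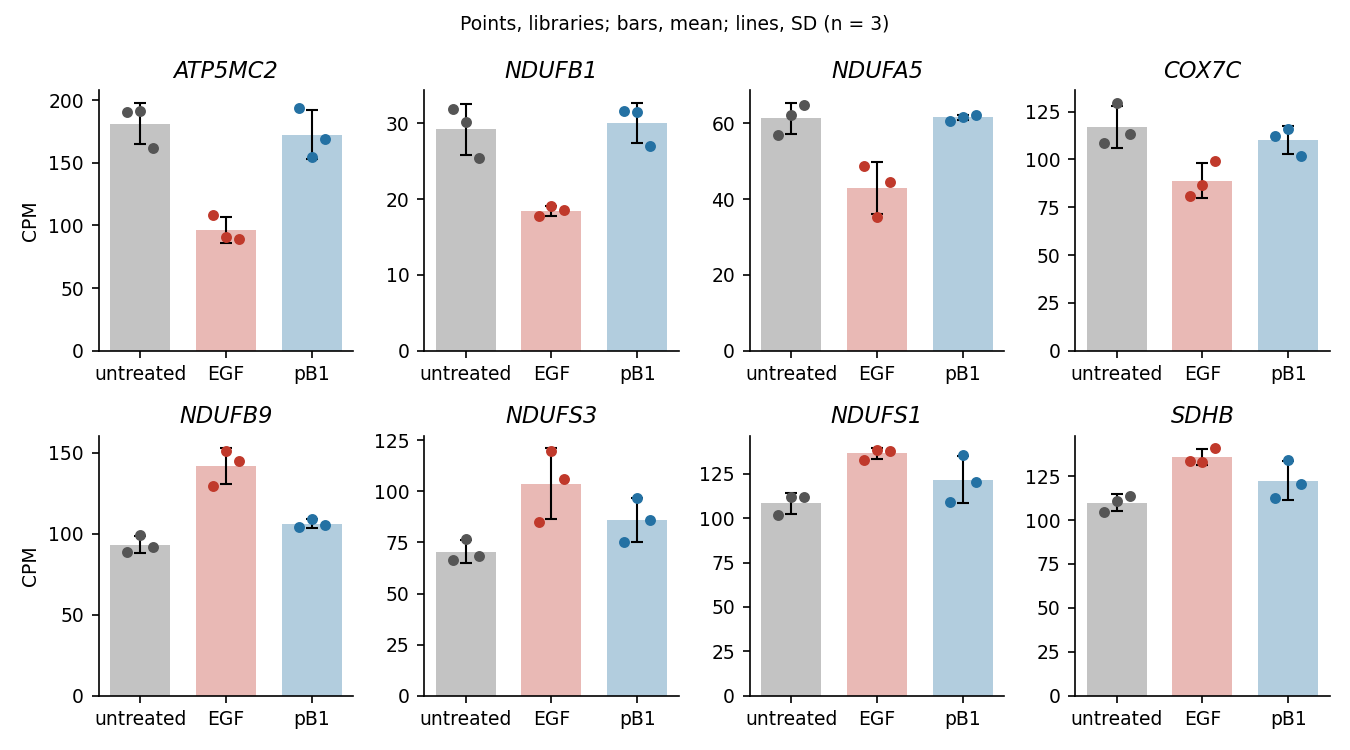
CPM of 4 subunit genes that fell with EGF (top) and 4 that rose (bottom), with libraries as points, means as bars and SD as lines (n = 3). The EGF libraries do not overlap the untreated ones in any of the 8 genes.

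The deposited length of a gene is an average over its transcripts in that library, and so follows their mix. Among subunit genes with a mean of at least 10 CPM, 40 had a length that varied. With EGF, 17 of these did not overlap the untreated libraries (42.5%, against 21.4% of 5848 genes of that level with a varying length), with 7 longer and 10 shorter. With bleogen pB1, 5 did not overlap (12.5%, against 11.5%). The differences were small, under 1% in 36 of the 40 genes with EGF. The largest was in ATP5MD, at 468.6, 474.7 and 481.1 bases untreated and 492.5, 491.8 and 491.5 bases with EGF, 3.6% longer.

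To find out whether bleogen pB1 changed the same transcripts, its 3 libraries were compared with the same untreated libraries, which both comparisons therefore share. No subunit gene was called by edgeR in either direction (against 1.56% of all genes tested higher and 2.55% lower, and 1.48% with a |log2FC| of at least 0.5). DESeq2 also called 0, and 12 of the 82 genes had an unadjusted edgeR p under 0.05 (14.6%, against 22.2% of all genes tested). The smallest adjusted p was 0.126, for NDUFB9. One gene was called without bleogen pB1 replicate 1, NDUFS1 with a log2FC of 0.24.

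The values leaned upward with bleogen pB1. The median log2FC was 0.06, and 65 of 82 subunit genes were above 0 (79.3%, against 49.7% of all genes tested). Without untreated replicate 2 the median was 0.12 with 69 genes above 0, and without untreated replicate 3 it was 0.03 with 52 above 0. In 11 of 82 genes the bleogen pB1 libraries lay above all untreated ones, near the share over all genes tested (14.4%). In 1 of 82 they lay below (against 14.7%). The highest values were those of NDUFS3 (0.29, 95% interval 0 to 0.58) and NDUFA11 (0.24, 0.02 to 0.46). Of the 79 genes with a mean of at least 10 CPM, 78 had a 95% interval within 0.5 of no change on the log2 scale.

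Levels with bleogen pB1 are given for some of the genes called with EGF. NDUFB9 had 104.2, 109.2 and 105.4 CPM, above all untreated libraries and below all EGF libraries. ATP5MC2 had 193.5, 154.7 and 168.6 CPM, which overlapped the untreated libraries, with a log2FC of -0.07 and a 95% interval of -0.31 to 0.16. NDUFB1 had 31.63, 31.51 and 27.02 CPM, and NDUFA5 had 60.7, 61.7 and 62.2 CPM, both again overlapping untreated cells. SDHB had 112.3, 134.4 and 120.5 CPM, with replicate 2 inside the EGF range and replicate 1 inside the untreated range. All of these were compared at 10 nM EGF and 1 µM bleogen pB1, which are different doses.

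The difference between the treatments was tested directly. With EGF against bleogen pB1, 3 subunit genes were higher (3.66%, against 28.5% of all genes tested) and 30 were lower (36.6%, against 29.7%), and 4 were past a |log2FC| of 0.5 (4.88%, against 28.8%). The higher genes were NDUFB8, NDUFB9 and NDUFS6. Only NDUFB9 (log2FC 0.42 ± 0.07, edgeR adjusted p = 0.000199) kept that call in every alternative and with each library left out. The count of higher genes was 5 without EGF replicate 1, 8 without bleogen pB1 replicate 2, and 1 without EGF replicate 3 or bleogen pB1 replicate 3. ATP5MC2 was lower with EGF than with bleogen pB1 by a log2FC of -0.84 (edgeR adjusted p = 1.3e-05) and NDUFB1 by -0.70. Of the 41 genes called with EGF against untreated, 25 of the lower and 3 of the higher genes were called in the same direction here, and the comparisons share the EGF libraries. For 11 genes that rose with EGF, NDUFS3, NDUFS1 and SDHB among them, the difference between treatments did not pass the test. In the edgeR fit with TMM factors, NDUFA7, SDHA, CYC1, COX6C and COX7B were called lower with EGF only in this comparison. Against untreated cells, SDHA, COX6C and COX7B were each called lower in 5 of 11 other alternatives, and NDUFA7 in 4 of 11. Between the treatments, CYC1 and COX6C each kept their call in only 2 of 6 analyses with 1 library left out. SDHA had 219.5, 221.6 and 224.6 CPM with bleogen pB1, above every untreated and every EGF library, and its log2FC between treatments was -0.21 (edgeR adjusted p = 0.00548).

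With 3 libraries against 3, an exact permutation test of a single gene cannot give a p under 0.1, so the calls above rest on the spread shared across genes in the edgeR fit.

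Genes that build, feed or regulate the complexes were counted from lists. Over all genes tested, 32.4% were higher and 33.6% were lower with EGF, and the counts of each list stand beside these shares. Of 14 complex I assembly factors, 6 rose and 1 fell with EGF (5 and 2 with upper-quartile scaling). NDUFAF8, NDUFAF2 and NDUFAF4 rose by 1.00, 0.75 and 0.75 on the log2 scale. NDUFAF8, at 10.96 ± 0.49 CPM in untreated cells, reached 21.99 ± 1.21 CPM with EGF and 15.96 ± 3.10 CPM with bleogen pB1 (SD, n = 3). It was the only gene of these lists called with bleogen pB1 (log2FC 0.54, edgeR adjusted p = 0.0355). Among all genes tested, 1.56% were higher and 2.55% were lower with bleogen pB1. NDUFAF8 had 276, 416 and 329 counts there, with replicate 2 highest, and 216, 231 and 233 in untreated cells. Of 33 tested assembly factors of complexes II to V, 10 rose and 8 fell (5 and 12 with upper-quartile scaling). COA6, a copper-related factor of complex IV, rose by 1.12, whereas HIGD2A fell by 0.98 and SCO2, which delivers copper to complex IV, fell by 0.75.

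Among 15 genes of cytochrome c and coenzyme Q synthesis, 5 rose and 5 fell with EGF, near the shares over all genes tested (32.4% and 33.6%). CYCS, the cytochrome c gene, rose from 295.0 ± 3.02 to 404.5 ± 30.4 CPM (log2FC 0.46, edgeR adjusted p = 0.000314). COQ10B rose by 1.06, and COQ5, a methyltransferase of coenzyme Q synthesis, fell by 1.02. Of 14 citric acid cycle enzymes, 8 rose and 3 fell (5 and 5 with upper-quartile scaling), with IDH2 lower by a log2FC of -1.19. Complex II belongs to this cycle as well.

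Of 14 regulators of mitochondrial gene expression, 6 rose and 1 fell with EGF (against 32.4% and 33.6% of all genes tested). The one that fell was PPARGC1A, the coactivator PGC-1α, with 65, 85 and 72 counts in untreated cells, 4, 2 and 0 with EGF and 68, 60 and 71 with bleogen pB1 (edgeR adjusted p = 4.83e-07 with EGF). Its relative PPARGC1B rose by 0.49 and ESRRA, a nuclear receptor that both coactivate, by 0.58. GABPA, the DNA-binding part of GABP, rose by 0.23 (edgeR adjusted p = 0.0167). NRF1 and YY1, whose letters were searched in the promoters, had log2FC values of 0.13 and 0 and did not pass the test. With upper-quartile scaling, 5 of the 14 regulators were higher and 1 was lower. Of 3 related genes whose names the symbol rule does not match, NDUFAB1, the acyl carrier protein of complex I, rose by 0.32, and DMAC1, an assembly factor of the membrane arm, and NDUFA4L2 fell by 1.10 and 0.67.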

How the data were processed

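All 9 libraries were used and were grouped by their titles. The authors had the RNA sequenced at BGI and the reads mapped to GRCh38.p12, and deposited for each gene an expected count, the FPKM and a mean transcript length. The counting program and its use of strand are not given in the sources used here, so overlapping genes are uncertain. A gene missing from a file was set to 0.

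Expected counts were rounded, and edgeR 4.0.16 (R 4.3.3) was run on them with filterByExpr, TMM factors, glmQLFit and glmQLFTest. All 9 libraries entered one fit with 6 residual degrees of freedom, with thresholds of 0.05 for the adjusted p and 0.5 for |log2FC|. Exact permutation tests were two-sided. Alternatives were DESeq2 1.42.0, 2 groups only, other scaling factors and filters, limma 3.58.1 on log2(FPKM + 1) or log2(FPKM + 0.1), a replicate block and each library left out.

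The genes and lists were chosen with earlier results of these data known. Named were genes past both thresholds, the 3 highest and 3 lowest log2FC and the extreme FPKM of each complex, and core, catalytic and isoform genes. Other named genes were chosen after their values were seen. Gene positions are from GENCODE release 44. One gene that the naming rule covers is not reported here one by one and stays in the fits and counts.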

Additional observations from a re-analysis of the deposited data

How the results depend on the processing

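No called subunit gene reversed its direction under any alternative. With EGF against untreated, the count of higher genes was 14, and it was 7 with upper-quartile factors, 9 with no scaling factors and 9 in each limma analysis of FPKM. The median log2FC of -0.092 became -0.196 and -0.148 with those factors and -0.163, -0.165 and -0.16 with limma. The cause was not tested. Leaving out 1 library gave 9 to 17 higher genes, 19 to 28 lower genes, 5 to 8 past both thresholds and a median of -0.111 to -0.037, with the fewest higher genes without untreated replicate 1 and the fewest past both thresholds without EGF replicate 2. With bleogen pB1 the count of higher genes was 0 to 1 and the median 0.034 to 0.118 with 1 library left out. Between EGF and bleogen pB1, the 3 higher genes became 5 with DESeq2, 1 with upper-quartile, 1 with no scaling factors and 1 with limma, and 1 to 8 with 1 library left out. The 30 lower genes became 49 in each limma analysis, and the median became -0.242, -0.226, -0.259, -0.262 and -0.259 with upper-quartile factors, no scaling factors and the 3 limma analyses. Same-numbered libraries did not all deviate together (correlations of 0.045, 0.036 and 0.004 for EGF and 0.207, -0.03 and 0.113 for bleogen pB1), and in the analysis with a replicate block the higher genes numbered 16 with EGF, 1 with bleogen pB1 (NDUFS3) and 6 between the treatments. Over the named genes, 744 values with EGF stayed on the same side of the threshold, 44 gained and 41 lost the call. Depth limits COX6B2, ATP5S and ATP5MF-PTCD1, which lay under 6 CPM.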
